A study of Mus musculus with 33 samples.

Results

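Resident memory T cells (TRM) of mouse skin that were sorted as negative for a reporter of recent antigen receptor signalling were compared between the day after an allergic challenge and the resting state before it. The cells were live CD45+CD8+CD69+CD103+ TRM sorted by FACS from the skin of Nur77GFP mice, a reporter strain in which GFP marks recent T cell receptor (TCR) signalling. All animals had been made allergic to dinitrofluorobenzene (DNFB), a skin-sensitising hapten. The day 1 group holds the 2 Nur77GFP-negative libraries, A and B, whose count table columns carry the code 4. They were taken 24 hours after DNFB retest, in an arm that received either topical TA (0.01%, a glucocorticosteroid) or its acetone vehicle. Which of these agents code 4 stands for was not used here, so the group is called the code 4 arm and no result below is assigned to an agent. The day 0 group holds 3 Nur77GFP-negative libraries, A, B and C, of acetone-treated mice taken just before retest. These 5 libraries are 5 of 33 in the series and 5 of 17 in its first experiment, and the comparison covers the 11588 genes with enough counts to be tested out of 18054 listed. The 2 Nur77GFP-negative day 1 libraries of the other arm, code 3, are used to show where the code 4 arm differs from the other challenged skin. The libraries of a group carry letters, but the labels do not tie them to different animals. The p-values rest on the spread between libraries of the same group, estimated over all 17 libraries of the first experiment and not over these 5 alone. This spread may therefore be technical.

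CD8 TRM settle in the epidermis, where CD103 (the integrin chain Itgae) binds E-cadherin of keratinocytes and CD69 keeps the cells from leaving. In contact allergy to a hapten, TRM that meet the hapten on major histocompatibility complex (MHC) class I molecules signal through the TCR, release granzymes, interferon gamma and chemokines, and divide. TRM beside them that do not signal, often called bystanders, are still exposed to cytokines, dying keratinocytes and any drug put on the skin.

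The code 4 libraries were the shallower ones, with 2442825 and 2519106 counts and 10068 to 10284 genes detected, against 3488476 to 6982296 counts and 11217 to 13120 genes at day 0. Values below are counts scaled to library size (CPM) with factors from the trimmed mean of M values (TMM). Mitochondrial transcripts took 35.8 and 36.7% of the counts in code 4 libraries A and B and 24.9 to 31.5% at day 0, of which mitochondrial ribosomal RNA alone took 19.5 and 21.8% against 6.86 to 12.9%. The part that depth or this share has in the results was not tested, beyond fits with every library thinned to the smallest one (999 genes called, against 1000) and without mitochondrial genes (1003). Across genes, log2 CPM correlated at 0.887 between the code 4 libraries, at 0.910 to 0.924 among the day 0 libraries and at 0.844 to 0.860 between the groups. The labelled cell type was checked on its coreceptor: Cd8a, a chain of the CD8 coreceptor, was at 538, 466 and 441 CPM in day 0 libraries A, B and C and at 575 and 597 CPM in code 4, and Cd8b1, the other chain, at 684, 789 and 710 against 695 and 613 CPM. Neither passed the test (adjusted p = 0.163 and 0.467, edgeR quasi-likelihood test with Benjamini-Hochberg adjustment, as for all adjusted p-values below). Cd4 was at 0 in all 5 libraries. In the reporter's own transcript, eGFP, the GFP-negative cells of day 0 held 0.704, 1.40 and 4.49 CPM and those of code 4 held 11.1 and 9.92 CPM. The groups do not overlap, and the difference did not pass the test (log2 fold change 2.29 ± 0.914 SE, adjusted p = 0.132). Nr4a1, the gene of Nur77 itself, was at 2048, 1428 and 1832 CPM at day 0 and at 1340 and 1342 CPM in code 4 (log2 fold change -0.40 ± 0.169, adjusted p = 0.159). Without day 0 library B this difference passed the test, at -0.61 on the log2 scale.

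Of the 11588 genes tested, 1000 (8.63%) were called at an adjusted p under 0.05, 403 higher (3.48%) and 597 lower (5.15%) in code 4 than at day 0. Changes of over 2-fold made up 277 of the higher and 485 of the lower calls. The libraries of the groups did not overlap for 996 of the 1000. The calls were made from these same libraries and the share over all genes tested was not counted, so this adds no support to the calls. No count in either code 4 library was found for 101 called genes, and no count in any day 0 library for 3. The median log2 fold change over all genes tested was -0.11, which is the level against which the lists below are to be read. Leaving out code 4 library A or B lost the larger part of the 1000 calls in each case and added others. None of the calls shared with these fits changed sign, which adds no support to the calls, since the fits reuse the remaining libraries. Each of these fits rests on 1 code 4 library. The number of higher genes moved most: it was 225 and 216 without code 4 library A or B and 264 and 246 without day 0 library B or C, while 404 to 518 genes were lower when any 1 library was left out. The RNA is of sorted pools of cells, so fewer cells of a kind and less RNA per cell cannot be told apart in anything below.

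**Figure D1:**
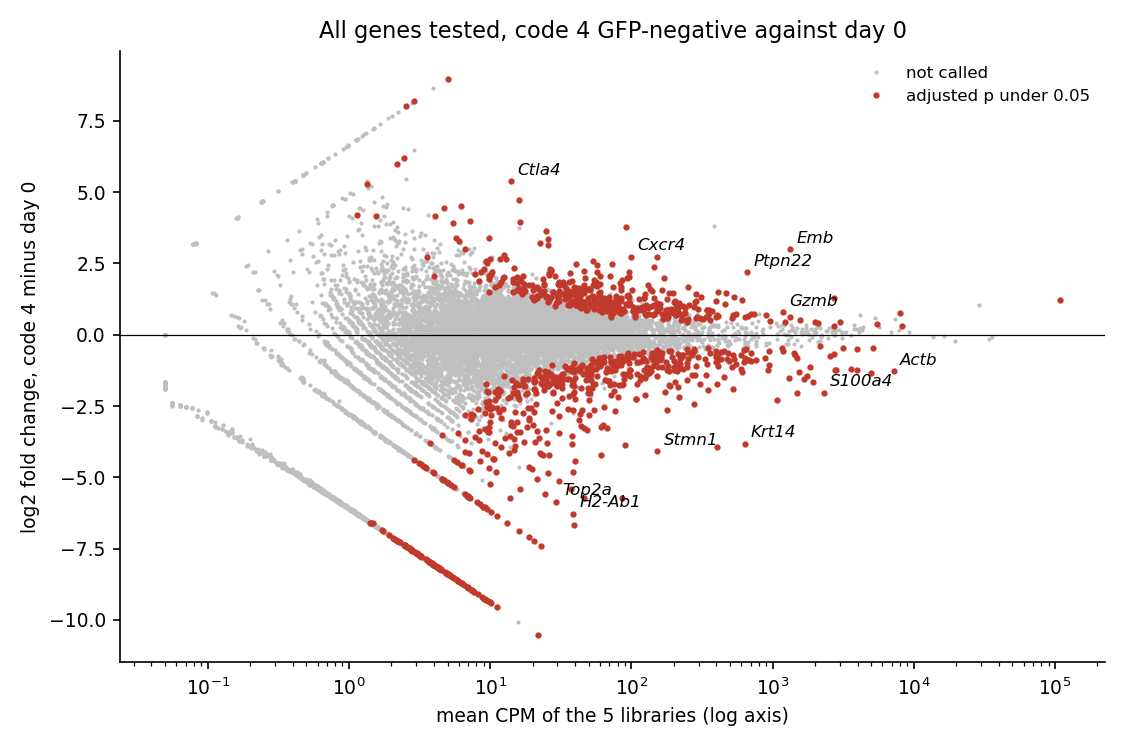
Log2 fold change of the code 4 arm at day 1 against day 0 (vertical axis) by mean CPM of the 5 libraries (horizontal axis, log scale) for the 11588 genes tested, with the 1000 called genes in red and the others in grey. Named points show the spread of the calls, from Ctla4 and Emb among the higher to Stmn1, Top2a and Krt14 among the lower.

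Calls in several groups of genes were mostly in 1 direction. Lower in code 4 were genes of the cell cycle (29 of 50 tested), markers of keratinocytes (18 of 29), genes of the actin cytoskeleton (17 of 32) and S100 genes (6 of 10). Higher were targets of the glucocorticoid receptor (12 of 32, with 3 lower), genes of ribosome biogenesis and translation initiation (11 of 36), T cell transcription factors (5 of 26) and inhibitory receptors (4 of 14, with a list median of 0.05 on the log2 scale and 7 members on each side of 0). When each library was left out in turn, 22 to 28 cell cycle genes, 15 to 18 keratinocyte markers, 12 to 18 actin genes and 4 to 6 S100 genes were lower, the 4 without code 4 library B. The higher calls were 9 to 11 for glucocorticoid targets, 5 to 9 for ribosome biogenesis (5 without day 0 library C and 7 without code 4 library B), and 2 to 4 for both transcription factors and inhibitory receptors, with 2 in each case without code 4 library B. Smaller groups of calls are given with their genes below. Of 79 cytosolic ribosomal protein genes 6 were higher, 1 or 2 when any 1 library was left out, and of 75 nuclear genes of the respiratory chain 6 were lower, 0 without code 4 library B and 15 by DESeq2. Called in either direction were 7.59 and 8.0% of these lists, near the 8.63% over all genes tested. None of the 13 protein-coding genes of mitochondrial DNA was called in either direction by edgeR or DESeq2, with 4 at an unadjusted p under 0.05. The list leaves out the mitochondrial ribosomal RNA genes. Of these mt-Rnr2 was called higher, at 49310, 90930 and 71834 CPM at day 0 and at 146394 and 184296 CPM in code 4 (adjusted p = 0.0164, and up to 0.139 without code 4 library A, code 4 library B or day 0 library C), while mt-Rnr1 had an adjusted p of 0.192, and 0.00135 without day 0 library B.

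**Figure D2:**
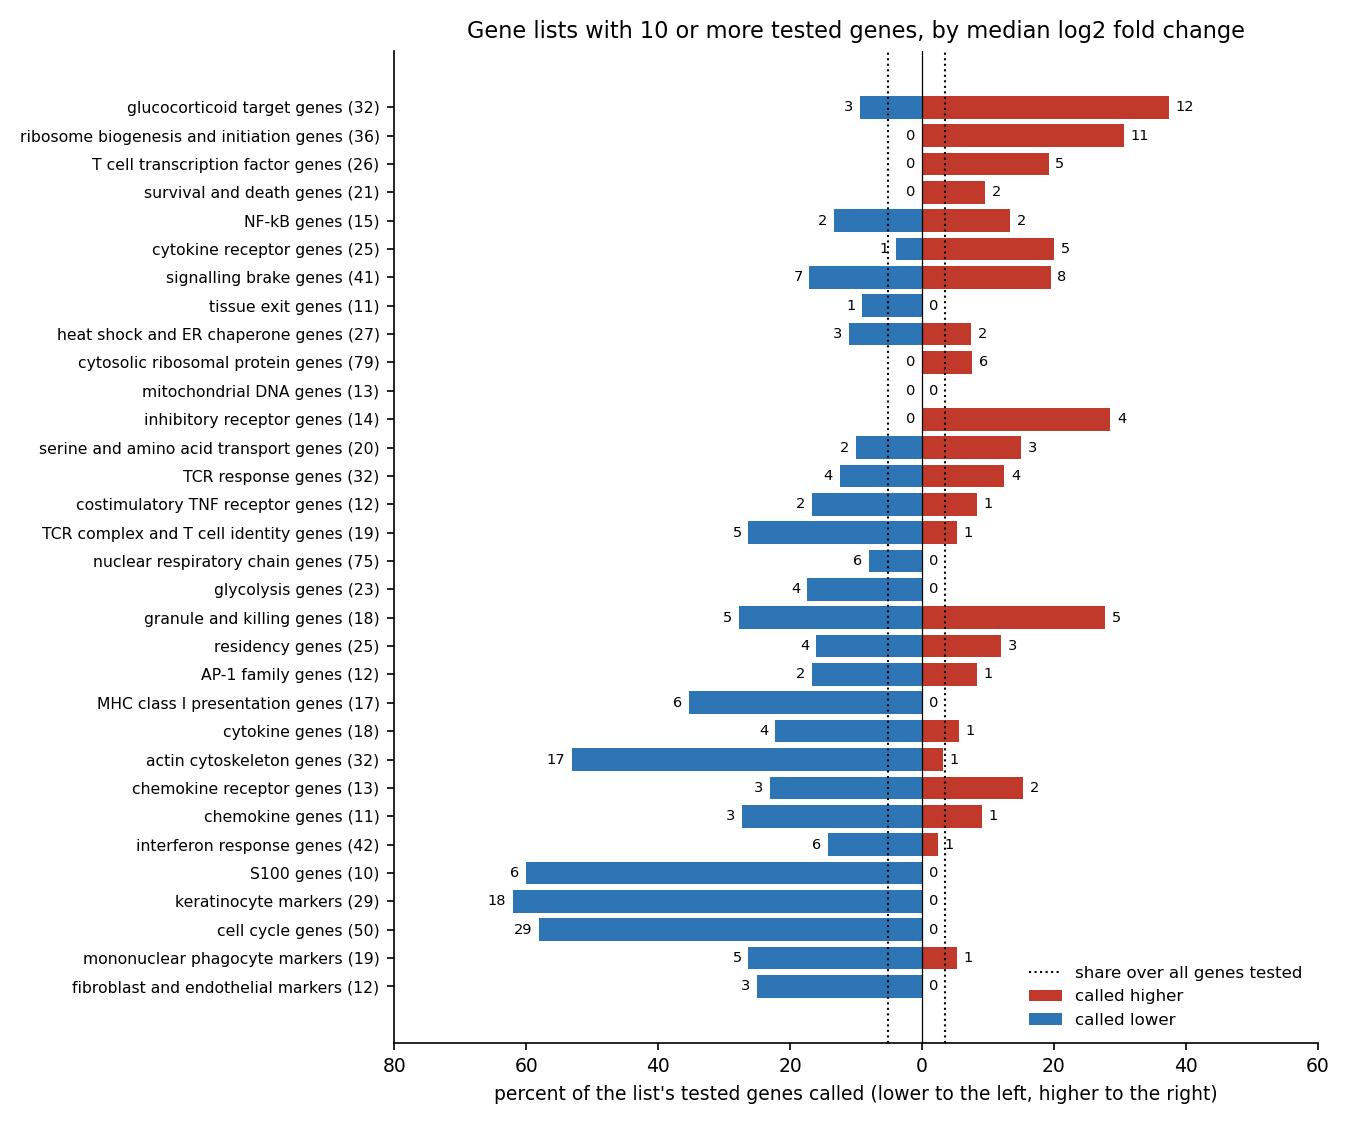
Share of each list's tested genes called higher (red, to the right) and lower (blue, to the left) in the code 4 arm against day 0, in percent, for lists with 10 or more tested genes (the number tested is in brackets), ordered by median log2 fold change. Numbers at the bars are counts of genes and the dotted lines mark the shares over all genes tested, 3.48% higher and 5.15% lower, which cell cycle genes, keratinocyte markers, S100 and actin genes exceed on the lower side.

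Genes of dividing cells were much lower on day 1 than in the resting skin. Their transcripts summed to 5762, 5336 and 4951 CPM in day 0 libraries A, B and C and to 1655 and 1790 CPM in the code 4 libraries. Of 50 tested, 29 were lower and none higher, and the median log2 fold change was -2.27 with genes at 0 placed at their bound. Many of the deepest falls were in the machinery of mitosis. Stmn1, which encodes stathmin, a protein that destabilises microtubules, stood at 274, 227 and 234 CPM at day 0 and at 14.4 and 14.7 CPM in code 4. Both code 4 libraries lie far below every day 0 library, and the log2 fold change was -4.07 ± 0.225 (adjusted p = 5.18e-10). Top2a, the topoisomerase that untangles sister chromatids, went from 47.7, 53.1 and 43.6 to 0.824 and 0.793 CPM (log2 fold change -5.85 ± 0.516, adjusted p = 2.74e-07). The mitotic kinase gene Cdk1 went from 68.1, 50.1 and 67.0 to 1.65 and 1.19 CPM (log2 fold change -5.42 ± 0.649, adjusted p = 2.11e-05). Its cyclin partner Ccnb2 was at 41.2, 34.9 and 44.4 CPM at day 0, at 0 in code 4 library A and at 1.59 CPM in library B. For Ccna2, the cyclin of S phase and early mitosis, a single count was found over both code 4 libraries against 497 at day 0, a ratio of 146 with a 95% counting interval of 26.1 to 5780. Cdca8, a subunit of the chromosomal passenger complex, had no count in code 4 and 187 at day 0, at least 18.3-fold lower against 3 counts over the group. Ube2c, the ubiquitin-conjugating enzyme of the anaphase-promoting complex, fell from 93.2, 72.7 and 64.0 to 1.24 and 1.59 CPM.

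Other members of the list had falls of varied size, and the difference between phases of the cycle was not tested. The tubulins Tubb5 (1688, 1522 and 1483 CPM at day 0, 322 and 326 CPM in code 4) and Tuba1b (802, 763 and 679 against 215 and 184 CPM) fell by 2.27 and 1.91 on the log2 scale. Ccnd2, the cyclin that couples growth signals to the entry into the cycle, fell by 1.40, Cdk4 by 1.17 and Pcna, the sliding clamp of DNA polymerase, by 0.72. Rrm2, which limits the supply of deoxynucleotides, fell by 5.74, from 214, 103 and 109 CPM to 3.30 and 1.98 CPM. The 6 Mcm genes of the replicative helicase did not pass the test: Mcm3 was at 18.5, 14.8 and 15.4 CPM at day 0 and at 10.7 and 10.3 CPM in code 4 (adjusted p = 0.572), and Mcm7 at 50.8, 53.1 and 45.4 against 56.5 and 63.9 CPM (adjusted p = 0.655). Mki67, the proliferation marker, was at 31.0, 20.9 and 13.7 CPM at day 0 and at 0.824 and 3.97 CPM in code 4, and it was called (adjusted p = 0.00677) but not without code 4 library A (0.0748). Keratinocytes of the basal layer also divide, and their markers fell in the same libraries, with summed levels given below. The part of such cells in the fall of the cell cycle genes was not tested.

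Promoters of 4 members are shown because the mitotic genes fell together and many promoters of such genes are known to share 2 short elements, the CCAAT box bound by NF-Y and the cell cycle homology region bound by the DREAM complex. The sequences are from RefSeq (GRCm38.p6), 250 bases before the start of transcription to 50 after it, written 5′ to 3′ on the strand of the gene. Capitals mark CCAAT and TTTGAA on either strand, so that ATTGG and TTCAAA are the same motifs read from the other strand.
Ccnb2 (chr9:70421505-70421804, minus strand): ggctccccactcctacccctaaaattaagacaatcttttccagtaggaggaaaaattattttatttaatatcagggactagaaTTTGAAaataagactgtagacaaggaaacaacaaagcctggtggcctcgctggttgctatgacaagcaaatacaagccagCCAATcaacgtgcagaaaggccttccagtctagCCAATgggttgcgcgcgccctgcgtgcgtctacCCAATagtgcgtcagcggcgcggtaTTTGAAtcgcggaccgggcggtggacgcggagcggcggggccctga
Cdc20 (chr4:118437294-118437593, minus strand): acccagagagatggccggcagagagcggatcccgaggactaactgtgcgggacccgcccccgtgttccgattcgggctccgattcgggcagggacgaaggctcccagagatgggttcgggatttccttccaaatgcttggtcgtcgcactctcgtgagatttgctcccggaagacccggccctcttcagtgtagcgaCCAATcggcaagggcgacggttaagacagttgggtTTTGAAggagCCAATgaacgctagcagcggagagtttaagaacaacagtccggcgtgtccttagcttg
Ube2c (chr2:164769679-164769978, plus strand): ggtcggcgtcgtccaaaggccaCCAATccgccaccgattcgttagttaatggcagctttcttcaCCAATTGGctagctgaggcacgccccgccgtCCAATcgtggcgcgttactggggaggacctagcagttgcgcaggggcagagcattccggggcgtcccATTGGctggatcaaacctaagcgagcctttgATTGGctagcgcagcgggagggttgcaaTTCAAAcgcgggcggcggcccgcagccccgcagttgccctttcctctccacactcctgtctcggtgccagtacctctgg
Top2a (chr11:99024140-99024439, minus strand): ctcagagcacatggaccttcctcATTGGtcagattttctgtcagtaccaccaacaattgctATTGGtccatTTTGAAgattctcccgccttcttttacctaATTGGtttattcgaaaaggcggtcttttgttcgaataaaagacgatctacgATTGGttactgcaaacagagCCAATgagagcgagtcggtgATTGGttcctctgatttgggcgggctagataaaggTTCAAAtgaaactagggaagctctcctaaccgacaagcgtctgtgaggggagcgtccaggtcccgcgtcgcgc
CCAAT was found in the promoters of 17 of the 24 cell cycle genes called lower that have an entry (70.8%), in 31 of all 41 listed genes with an entry (75.6%) and in 42.8% of the promoters of all 8671 tested genes with an entry. TTTGAA was in 12 of the 24 (50.0%), in 18 of the 41 (43.9%) and in 14.3% of all. Of 9 motifs searched on both strands, the remaining 7 were TTCGAA as a variant of the cell cycle homology region, TTTGGCGC and also GGCGGGAA as sites of E2F factors, CACGTG as the E-box, AGAACA as the core of the glucocorticoid response element, ACANNNTGT as the spaced form of that element and TATAAA as the TATA box. In the called genes of the list none of these reached a share above 12.5%. The Mcm genes and the rest of the list that did not pass the test are within the 41, so the shares describe the list and do not separate its called genes.

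More targets of the glucocorticoid receptor were higher than lower. The list holds genes that the receptor is known to induce in lymphocytes and other cells. Of 32 tested, 12 were higher and 3 lower, with a median log2 fold change of 0.79. Tsc22d3, which encodes the anti-inflammatory protein GILZ, stood at 98.3, 70.9 and 109 CPM at day 0 and at 312 and 232 CPM in code 4 (log2 fold change 1.55 ± 0.205, adjusted p = 4.63e-05). Fkbp5, a co-chaperone that dampens the receptor itself, went from 11.3, 12.3 and 14.9 to 47.4 and 59.1 CPM (log2 fold change 2.05 ± 0.331, adjusted p = 0.000412). For both genes every code 4 library lies above every day 0 library. The chemokine receptor gene Cxcr4 went from 36.9, 29.3 and 25.2 to 195 and 214 CPM (log2 fold change 2.74 ± 0.214, adjusted p = 5.39e-08). Il7r, the receptor chain for the survival cytokine IL-7, went from 21.5, 35.0 and 20.2 to 163 and 127 CPM (log2 fold change 2.50 ± 0.32). Pik3ip1, an inhibitor of phosphoinositide 3-kinase, was at 3.34, 5.46 and 4.49 CPM at day 0 and at 61.8 and 49.6 CPM in code 4 (log2 fold change 3.64 ± 0.467). Txnip, Cebpb and Zfp36l2 rose by 1.46, 1.66 and 1.22 on the log2 scale. The list did not move as one. Anxa1, which encodes the anti-inflammatory annexin A1, fell from 149, 189 and 173 to 66.8 and 61.1 CPM (log2 fold change -1.42 ± 0.191). Dusp1, a phosphatase of mitogen-activated protein kinases and a common glucocorticoid target, was at 562, 504 and 499 against 424 and 380 CPM and did not pass the test (adjusted p = 0.13). Sgk1 was at 89.2, 39.6 and 59.5 against 70.5 and 45.2 CPM (adjusted p = 0.884). Per1 rose by 1.15 on the log2 scale (adjusted p = 0.0121), a call lost in 5 alternatives, the highest adjusted p being 0.0921 without code 4 library B. Members of this list are also induced or repressed by other signals, among them cytokines and TCR signalling, and which signal moved them was not tested. The hexamer AGAACA, the core of the element to which the receptor binds, was in the promoters of 2 of the 11 members called higher with an entry (18.2%). It was in 3 of all 28 listed genes with an entry (10.7%) and in 14.8% of all promoters. The spaced form of the element, ACANNNTGT, was in 2 of the 11 (18.2%), in 4 of the 28 (14.3%) and in 5.01% of all promoters. These shares were not tested.

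Some inhibitory receptors and intracellular brakes on TCR signalling were several-fold higher. Ctla4, which competes with CD28 for its ligands, was near 0 at day 0, with 0.176, 0.280 and 2.24 CPM, and stood at 30.9 and 36.9 CPM in code 4. This was the largest rise among the genes that the rule of size names (log2 fold change 5.38 ± 0.692, adjusted p = 3.33e-05). Pdcd1, the gene of the checkpoint receptor PD-1, went from 42.4, 36.7 and 49.8 to 168 and 185 CPM (log2 fold change 2.04 ± 0.259, adjusted p = 3.06e-05). Havcr2 (TIM-3) and Tigit were the other 2 called members. Havcr2 was at 91.8, 105 and 135 against 189 and 256 CPM, with an adjusted p of 0.00518 that became 0.0982 without code 4 library B. Tigit was at 0, 0.98 and 0.498 against 7.83 and 11.1 CPM, with an adjusted p of 0.0124 that became 0.0819 with only the libraries of the groups compared. Lag3 was near the floor, at 0.879, 1.26 and 2.49 against 1.65 and 0.793 CPM (adjusted p = 0.921). Inside the cell, Ptpn22, a phosphatase that switches off the kinases of the TCR, went from 242, 254 and 312 to 1219 and 1273 CPM (log2 fold change 2.21 ± 0.139, adjusted p = 3.55e-09). Dusp2, a phosphatase of mitogen-activated protein kinases, went from 50.0, 56.1 and 55.3 to 267 and 289 CPM (log2 fold change 2.37 ± 0.206). Socs1, the feedback inhibitor of cytokine receptors, went from 267, 235 and 207 to 725 and 611 CPM (log2 fold change 1.50 ± 0.2). Over the whole list of brakes 8 of 41 tested genes were higher and 7 lower (5 and 1 without code 4 library A), so the list did not move one way. Among the lower ones, Zfp36l1, which speeds the decay of cytokine mRNA, fell by 0.94 on the log2 scale while its relative Zfp36l2 rose by 1.22.

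Effector genes were divided. Of 18 granule and killing genes tested, 5 were higher and 5 lower, and of 18 cytokine genes 1 was higher (0 without day 0 library B or code 4 library B) and 4 were lower. Gzmb, the granzyme B gene, was at 906, 846 and 974 CPM at day 0 and at 1604 and 1572 CPM in code 4 (log2 fold change 0.80 ± 0.119, adjusted p = 0.000178). Gzmc, of the same cluster, went the other way, from 102, 94.4 and 96.9 to 30.9 and 27.0 CPM (log2 fold change -1.76 ± 0.293), and Gzmf rose from 18.6, 14.1 and 19.4 to 49.5 and 51.6 CPM. Granzyme genes are close in sequence, and how reads shared between them were counted is not known here. Srgn, the proteoglycan that packs granzymes, rose from 6057, 6374 and 6273 to 11121 and 10188 CPM (log2 fold change 0.77 ± 0.0883). Nkg7, a membrane protein of the granules, fell from 1206, 1291 and 1122 to 518 and 505 CPM (log2 fold change -1.24 ± 0.126), and the granule protease gene Ctsw and Lamp1 fell by 1.12 and 0.86. Prf1, the gene of perforin, was at 17.2, 14.1 and 14.2 against 12.4 and 18.2 CPM (adjusted p = 1). Gzma was at 95.7, 111 and 121 against 82.8 and 90.8 CPM (adjusted p = 0.283).

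Among cytokines, Ifng was at 748, 665 and 904 CPM at day 0 and at 346 and 320 CPM in code 4. Each code 4 library held less than any day 0 library, and the log2 fold change was -1.22 ± 0.148 (adjusted p = 1.84e-05). Il13, a type 2 cytokine gene, fell from 38.0, 31.6 and 36.1 to 4.95 and 0.793 CPM, and Tnfsf11 (RANKL) from 21.1, 36.3 and 29.4 to 9.07 and 6.35 CPM. Tnf was at 85.5, 58.5 and 97.4 against 67.6 and 58.3 CPM and did not pass the test (adjusted p = 0.461). Il2 was near the floor in both groups, at 2.46, 2.80 and 1.99 against 2.06 and 2.78 CPM. Xcl1, the chemokine that draws cross-presenting dendritic cells, fell from 207, 165 and 236 to 77.1 and 71.0 CPM (log2 fold change -1.45 ± 0.143), and Ccl1 fell by 0.93. Ccl3 rose from 256, 226 and 282 to 454 and 486 CPM (log2 fold change 0.88 ± 0.136). Ccl4, its neighbour in function, was at 1348, 897 and 1004 against 1333 and 1421 CPM (adjusted p = 0.273).

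**Figure D3:**
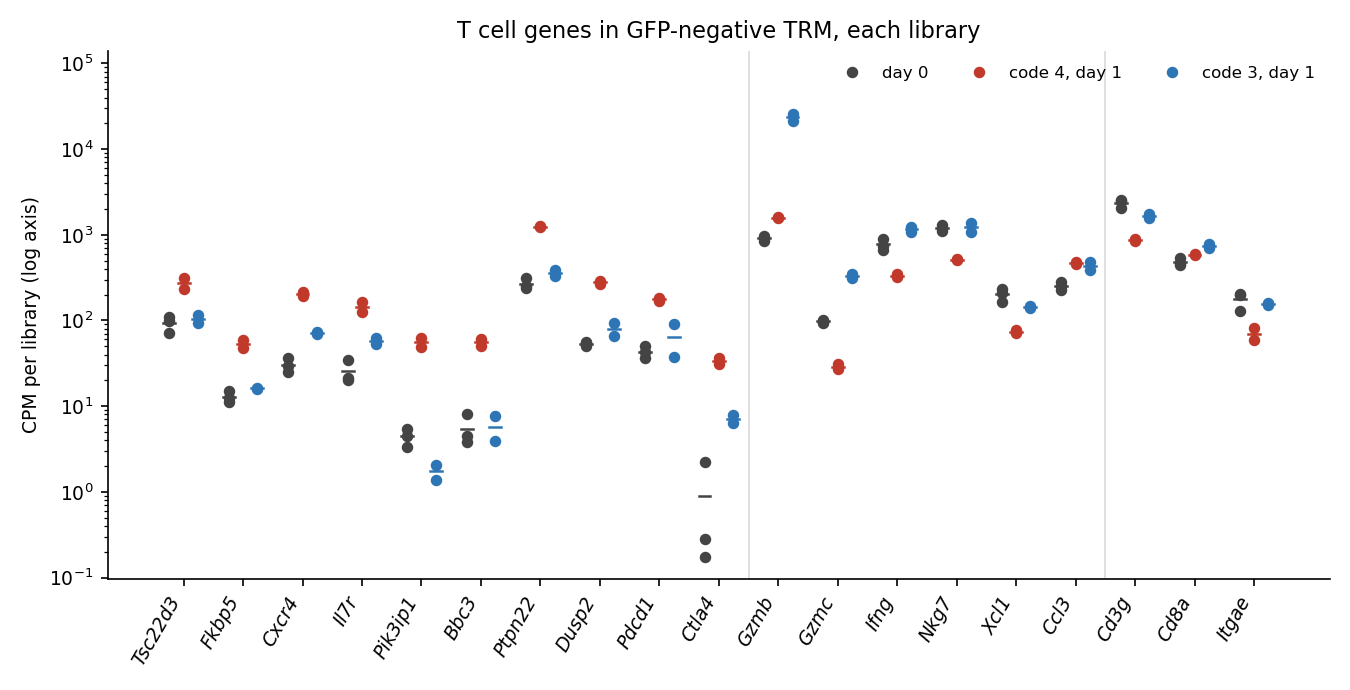
TMM-scaled CPM on a log axis of immune genes named in the text, with 1 point for each library of day 0, code 4 and code 3 and a horizontal bar at the mean of each group. Ctla4, Cxcr4, Ptpn22 and Dusp2 lie higher in both code 4 libraries, and Ifng, Gzmc and Xcl1 lower.

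Genes of the immediate response to TCR signalling did not move one way in these GFP-negative cells. Of 32 tested 4 were higher and 4 lower (4 and 1 without code 4 library B, 2 and 3 without library A), and the median log2 fold change was -0.07. The largest rise in the list was 2.37 on the log2 scale, the value of Dusp2, given above among the brakes. Egr2, a transcription factor gene switched on by TCR signalling, was at 26.0, 12.7 and 27.4 against 26.8 and 22.6 CPM (adjusted p = 0.872). Egr1 was at 71.8, 75.6 and 78.0 against 58.1 and 55.1 CPM (adjusted p = 0.427). Gadd45b, a stress and NF-kB target, fell from 164, 148 and 180 to 75.8 and 72.6 CPM (log2 fold change -1.15 ± 0.188). In the AP-1 family Fosb fell from 619, 517 and 540 to 182 and 155 CPM (log2 fold change -1.73 ± 0.155, adjusted p = 3.33e-07), and Maff, a small Maf protein gene, rose from 119, 44.2 and 68.5 to 291 and 324 CPM (log2 fold change 1.99 ± 0.294). Fos was at 442, 389 and 452 against 345 and 412 CPM (adjusted p = 0.484). Hspb1, a small heat shock protein gene that keratinocytes also express, fell from 147, 102 and 95.9 to 13.2 and 22.6 CPM (log2 fold change -2.68 ± 0.326). Hspa1b fell by 0.81 on the log2 scale, with reads that its near-identical copy Hspa1a can share, and Hspa4 rose by 1.29.

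The genes that hold TRM in the skin gave mixed changes, from -1.43 to 1.88 on the log2 scale. Of 25 residency genes tested, 3 were higher, 0 without code 4 library B and 1 without day 0 library B, and 4 were lower. Itgae, the gene of the sorted marker CD103, was at 198, 203 and 130 CPM at day 0 and at 82.0 and 58.7 CPM in code 4. Its code 4 libraries lie below all day 0 libraries, with a log2 fold change of -1.33 ± 0.247 (adjusted p = 0.00152). Cdh1, the gene of E-cadherin, to which CD103 binds and which some TRM express themselves, fell from 250, 277 and 267 to 123 and 138 CPM (log2 fold change -1.02 ± 0.188). Keratinocytes express Cdh1 as well. Cxcr6, a chemokine receptor of TRM, fell from 258, 264 and 307 to 167 and 168 CPM (log2 fold change -0.73 ± 0.156). Cd69 was at 355, 335 and 377 against 284 and 257 CPM and did not pass the test (log2 fold change -0.40 ± 0.171, adjusted p = 0.168), and Itga1, the gene of CD49a, was at 24.8, 23.8 and 16.4 against 15.2 and 14.3 CPM (adjusted p = 0.429). Of 11 genes of exit from tissue, 1 was called, Itgal, the integrin chain of LFA-1, which was lower by 0.85 on the log2 scale (adjusted p = 0.00718, and 0.122 without code 4 library A). That share of 1 in 11 (9.09%) is near the 8.63% called over all genes tested. Klf2, the transcription factor that drives exit, was at 23.8, 16.9 and 28.9 against 9.48 and 7.54 CPM (adjusted p = 0.103).

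The genes of 3 CD3 chains of the TCR complex fell. Cd3g went from 2519, 2492 and 2066 to 887 and 838 CPM (log2 fold change -1.45 ± 0.136, adjusted p = 5.91e-07), Cd3e from 1442, 1099 and 1057 to 641 and 497 CPM, and Cd3d from 259, 283 and 284 to 120 and 110 CPM. Thy1, a surface glycoprotein of T cells, went from 4958, 4747 and 4293 to 2007 and 2018 CPM (log2 fold change -1.21 ± 0.0993). Cd247, the gene of the zeta chain of the same complex, was at 125, 107 and 122 against 105 and 113 CPM and did not pass the test (adjusted p = 0.771), and neither did Cd8a and Cd8b1, as given above. In all 5 of 19 tested genes of the TCR complex and T cell identity were lower and 1 was higher, a call lost without code 4 library A or B or day 0 library B or C. Among the cytokine receptors, 5 of 25 were higher, 2 without code 4 library B or day 0 library C and 3 without day 0 library B, and 1 was lower. Ifngr1, the ligand-binding chain of the interferon gamma receptor, rose from 205, 153 and 150 to 457 and 465 CPM (log2 fold change 1.44 ± 0.189), and Il2rg, the common gamma chain, fell from 3453, 3315 and 2771 to 1977 and 1998 CPM (log2 fold change -0.68 ± 0.12). Of 26 transcription factors of T cells none was lower. Id2, a regulator of effector CD8 T cells, rose from 143, 228 and 209 to 427 and 545 CPM (log2 fold change 1.33 ± 0.169), and Satb1, a chromatin organiser, from 57.2, 44.5 and 68.5 to 174 and 164 CPM (log2 fold change 1.57 ± 0.194). Tbx21, the gene of T-bet, was at 63.5, 63.0 and 74.0 against 53.2 and 57.5 CPM (adjusted p = 0.672).

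Genes of the response to interferon were lower or did not pass the test, apart from Socs1. Of 42 tested, 1 was higher and 6 were lower, 3 without code 4 library A and 4 without library B, and the median log2 fold change was -0.84. Ifitm1, which blocks the entry of viruses, was at 772, 758 and 899 CPM at day 0 and at 488 and 388 CPM in code 4 (log2 fold change -0.89 ± 0.132, adjusted p = 0.000173). Ifitm2 went from 769, 783 and 755 to 421 and 462 CPM (log2 fold change -0.80 ± 0.124). Isg15, an early target of type I interferon, was at 3.52, 3.50 and 9.97 against 0.824 and 1.98 CPM (adjusted p = 0.164). Of 17 genes of MHC class I presentation, 6 were lower, 2 of them without code 4 library A, and none higher. B2m, the light chain of class I molecules, fell by 0.47 on the log2 scale, from 5477, 6282 and 5656 to 4119 and 4273 CPM, and Tapbp, the chaperone tapasin, by 1.11.

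A set of highly expressed structural genes was lower. Of 32 actin cytoskeleton genes tested, 17 were lower and 1 was higher, and their summed level went from 40675, 41741 and 39544 CPM to 23039 and 23704 CPM. Actb, the gene of beta-actin, was at 9073, 9678 and 9703 CPM at day 0 and at 3837 and 3945 CPM in code 4 (log2 fold change -1.29 ± 0.109, adjusted p = 1.51e-07). Tmsb4x, which binds actin monomers, fell from 6129, 6847 and 6579 to 2608 and 2596 CPM (log2 fold change -1.32 ± 0.1), and Vim, the gene of the intermediate filament vimentin, from 3434, 3925 and 3484 to 1448 and 1626 CPM (log2 fold change -1.24 ± 0.0994). Flna, which cross-links actin filaments, fell by 1.84. Not all members followed, since Arpc3, a subunit of the Arp2/3 complex, was at 233, 273 and 209 against 358 and 363 CPM. That rise was called (adjusted p = 0.0137) and lost in 5 alternatives, with the highest adjusted p of 0.117 without day 0 library C. S100 genes, which encode small calcium-binding proteins, fell in 6 of 10 cases. S100a4 was at 3239, 3318 and 3324 CPM at day 0 and at 858 and 751 CPM in code 4 (log2 fold change -2.03 ± 0.104, adjusted p = 3.26e-10), and S100a6 at 3546, 3398 and 4101 against 1660 and 1436 CPM. Since keratinocytes also express many actin and S100 genes, their markers are given beside these values below.

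**Figure D4:**
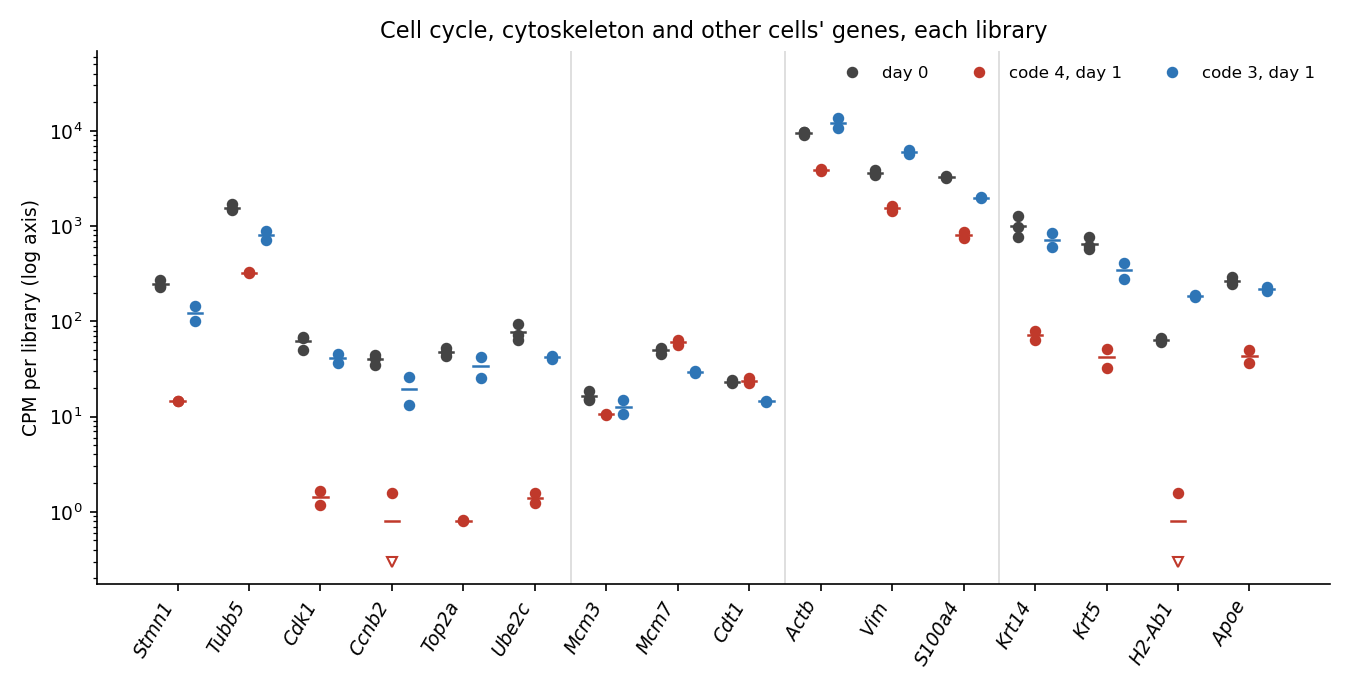
TMM-scaled CPM on a log axis of cell cycle, cytoskeleton, S100 and other cell type genes, with 1 point for each day 0, code 4 and code 3 library, a horizontal bar at each mean and open triangles at the bottom for libraries at 0. Both code 4 libraries lie below all day 0 libraries for Stmn1, Top2a, Actb, S100a4 and Krt14, while Mcm3 and Mcm7 show smaller distances between the groups.

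Of the metabolic lists, 17.4% of glycolysis genes and 25.0% of serine and amino acid transport genes were called, against 8.63% over all genes tested. Of 23 glycolysis genes 4 were lower, and fewer without code 4 library A. Slc2a3, a high-affinity glucose transporter, went from 43.6, 47.9 and 49.1 to 8.65 and 4.36 CPM (log2 fold change -2.85 ± 0.404). Tpi1, an enzyme of the pathway, went from 139, 104 and 122 to 48.6 and 34.1 CPM. Ldha, the lactate dehydrogenase, was at 730, 773 and 597 against 564 and 445 CPM (adjusted p = 0.0844, and 0.0304 without day 0 library C), and the main glucose transporter gene Slc2a1 at 43.1, 36.8 and 32.4 against 49.0 and 45.6 CPM (adjusted p = 0.477). Of 20 serine and amino acid transport genes 3 were higher and 2 lower (1 and 1 without day 0 library B). Psat1, an enzyme of serine synthesis, fell from 103, 103 and 111 to 3.71 and 17.9 CPM (log2 fold change -3.28 ± 0.424). In ribosome biogenesis and translation initiation 11 of 36 genes were higher and none lower, with a median log2 fold change of 0.62. Ncl, the gene of nucleolin, rose from 154, 182 and 131 to 253 and 278 CPM (log2 fold change 0.77 ± 0.152), Wdr43, a factor for the small ribosomal subunit, from 18.6, 35.4 and 23.4 to 77.9 and 71.4 CPM, and Eif1, which selects the start codon, from 1102, 1057 and 1153 to 1653 and 1737 CPM (log2 fold change 0.62 ± 0.0986).

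In the balance of survival and death, 2 of 21 genes were higher and none lower. This share (9.52%) is near the 8.63% called over all genes tested. The 2 called genes have opposite known roles. Bcl2, which protects from apoptosis, rose from 43.5, 39.8 and 36.1 to 149 and 216 CPM (log2 fold change 2.19 ± 0.242, adjusted p = 5.89e-06). Bbc3, which encodes the death promoter PUMA, rose from 8.09, 3.78 and 4.49 to 50.3 and 61.5 CPM (log2 fold change 3.35 ± 0.533, adjusted p = 0.000359). Bcl2l11, the gene of the related BIM, was at 21.5, 8.82 and 11.0 against 37.1 and 47.2 CPM and did not pass the test (adjusted p = 0.103), and Mcl1 was at 180, 150 and 145 against 234 and 205 CPM (adjusted p = 0.149).

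By size alone, the 15 largest rises among genes at 10 CPM or more that do not overlap between the groups began with Ctla4 and held Pik3ip1, Bbc3, Slc2a8, Dennd4c and Serpina3g, which kept their call under every alternative. Slc2a8, a glucose transporter of inner membranes, was at 2.11, 2.10 and 1.74 CPM at day 0 and at 21.4 in both code 4 libraries (log2 fold change 3.41 ± 0.75). Dennd4c, a regulator of membrane traffic, was at 4.22, 7.14 and 3.99 against 60.6 and 36.1 CPM (log2 fold change 3.22 ± 0.494). Serpina3g, a protease inhibitor of activated T cells whose reads can be shared with its copies, was at 7.39, 7.98 and 2.74 against 59.7 and 51.6 CPM (log2 fold change 3.16 ± 0.334). The other 9, Klrb1c, Serpina3f, Brwd3, Gtf2ird2, Gpr18, Zhx2, Dyrk3, Mfhas1 and Tcea2, each lost the call in 1 or more alternatives, with adjusted p-values up to 0.472 (Brwd3 without code 4 library B). The 15 largest falls were genes with no count in code 4. Flrt3, an adhesion protein, was at 10.2 to 22.2 CPM at day 0 and at least 24.6-fold lower against 3 counts over the code 4 group. Lmo1, Tcn2, Kat2a and Iqgap3 were at least 21.7-, 19.6-, 19.0- and 18.8-fold lower and like Flrt3 kept the call throughout. Kat2a encodes a histone acetyltransferase and Iqgap3 a scaffold protein of dividing cells. Among the rest, Cytl1, Col6a1 and Sox15 were at 0.879, 1.05 and 0.70 CPM in 1 day 0 library and at 15.4 to 55.7 CPM in the other two, and these 3 lost the call without code 4 library A or B, with adjusted p-values up to 0.272.

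Transcripts of other cell types differed between the groups, and they bear on how the sorted pools compare. Keratinocyte markers, 30 listed in the table, summed to 4600, 4813 and 4395 CPM at day 0 and to 860 and 1109 CPM in code 4. Of 29 tested 18 were lower and none higher. Krt14, the keratin of basal keratinocytes, was at 1288, 982 and 762 CPM at day 0 and at 64.3 and 78.9 CPM in code 4 (log2 fold change -3.82 ± 0.235, adjusted p = 3.92e-09), and Krt10, the keratin of the layers above, at 328, 482 and 466 against 103 and 152 CPM. Markers of mononuclear phagocytes, 22 listed, summed to 678, 653 and 536 CPM at day 0 and to 120 and 147 CPM in code 4, with 5 of 19 lower and 1 higher. H2-Ab1, a chain of MHC class II, was at 60.9, 67.2 and 65.0 CPM at day 0, at 0 in code 4 library A and at 1.59 CPM in library B (log2 fold change -6.28 ± 0.456, adjusted p = 2.05e-08). Apoe fell from 247, 293 and 265 to 36.7 and 50.0 CPM. The macrophage genes Lyz2 and C1qa were at 0 in all 5 libraries. Cd14, the coreceptor for lipopolysaccharide, was the 1 higher member, with no count at day 0 and 3.30 and 11.1 CPM in code 4, at least 40.8-fold higher against 3 counts over day 0. Neutrophil markers, 13 listed, summed to 21.3, 17.2 and 9.97 CPM against 14.8 and 13.9 CPM with none of 9 called by edgeR or DESeq2 and 3 at an unadjusted p under 0.05. Markers of fibroblasts and endothelium summed to 70.5, 205 and 217 CPM against 42.0 and 34.5 CPM, with 3 of 12 lower, 0 without code 4 library A and 1 without code 4 library B or day 0 library B. Of 8 B cell markers chosen only 2 were among the genes listed, and these were at 0 throughout. From the markers of mast cells and melanocytes 3 were tested with none called. NK and innate lymphoid markers summed to 126, 160 and 166 CPM against 145 and 133 CPM. Of these 1 of 6 tested was higher, Klrb1c, a call lost in 6 alternatives. Of 10 gamma delta T cell markers chosen only 2 were among the genes listed, so most could not be looked at. These 2 summed to 1.76, 3.5 and 4.73 CPM against 9.48 and 7.14 CPM, with 1 tested and none called. CD4 and regulatory T cell markers summed to 89.0, 83.7 and 83.2 CPM against 146 and 155 CPM, with 1 of 6 higher. Of the markers of regulatory T cells Ctla4 was called, while Foxp3, their defining factor, was at 0 in all libraries but code 4 library B, where it was at 19.8 CPM. Foxp3 did not pass the test (adjusted p = 0.0873), and passed it without code 4 library A (0.0487). The part of such cells in the falls of cell cycle, actin and S100 genes was not tested.

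The other challenged arm gives a second set of GFP-negative TRM from the same day. In GFP-negative TRM the test of code 4 against code 3 called 775 of the 11588 genes (6.69%), 230 higher (1.98%) and 545 lower (4.70%) in code 4. Without code 3 library A or B 356 and 491 were called, of which 75 and 106 were higher, and without code 4 library A or B 143 and 144 were higher. The lower calls were 281 without code 3 library A. Both arms are set against the same 3 day 0 libraries, so their values below stand side by side, and each difference between the arms is that of the direct test.

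The largest difference between the arms among granule genes was in Gzmb. In code 3 it stood at 25845 and 21167 CPM, against 1604 and 1572 CPM in code 4 and 846 to 974 CPM at day 0, and the difference between the arms was -3.89 ± 0.147 on the log2 scale (adjusted p = 2.36e-12). Gzmc was at 346 and 311 CPM in code 3, above day 0, and at 30.9 and 27.0 CPM in code 4, below it (difference -3.50). Ifng was at 1082 and 1226 CPM in code 3 against 346 and 320 CPM in code 4 (difference -1.79 ± 0.16), with day 0 between them. Ifitm1 was at 2600 and 2250 CPM in code 3 and at 488 and 388 CPM in code 4 (difference -2.47). In the interferon list 15 of 42 genes were lower and 1 higher in code 4 than in code 3, with 8 lower without code 3 library A and 9 without code 4 library B, and the 1 higher call was lost without code 3 library A or B or code 4 library A. By contrast Gzmf was at 53.1 and 55.3 CPM in code 3 and at 49.5 and 51.6 CPM in code 4, Srgn at 10193 and 9702 against 11121 and 10188 CPM, and Bcl2 at 151 and 158 against 149 and 216 CPM. None of these 3 passed the test between the arms.

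Glucocorticoid targets and brakes were higher in code 4 than in code 3 for part of their lists. Of the 32 glucocorticoid targets 10 were higher, 5 without code 3 library A, and 4 lower. Tsc22d3 was at 94.1 and 116 CPM in code 3, within the range of day 0 in 1 library and just above it in the other, against 312 and 232 CPM in code 4 (difference 1.37 ± 0.231, adjusted p = 0.000691). Fkbp5 was at 16.1 and 16.5 CPM in code 3 (difference 1.71 ± 0.371, adjusted p = 0.00705, and 0.0853 without code 3 library A), Ptpn22 at 332 and 388 CPM (difference 1.79), Dusp2 at 66.8 and 94.4 CPM (difference 1.78) and Pik3ip1 at 1.39 and 2.08 CPM (difference 4.97). The metallothionein gene Mt2 went the other way, at 2050 and 1653 CPM in code 3 against 341 and 271 CPM in code 4 and 302 to 376 CPM at day 0 (difference -2.60, adjusted p = 1.91e-08).

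The fall of cell cycle genes was larger in code 4. Of the 50 genes 20 were lower in code 4 than in code 3 and none higher, and against day 0 the code 3 arm had 4 lower. Their summed level was 3682 and 3377 CPM in code 3, between day 0 and code 4. Stmn1 was at 145 and 101 CPM in code 3 (difference -3.08) and Top2a at 25.4 and 41.9 CPM (difference -5.34). Actin and S100 genes were higher in code 3 than in code 4 in 18 of 32 and 9 of 10 cases. Actb was at 13548 and 10707 CPM in code 3, above the 9073 to 9703 CPM of day 0. Keratinocyte markers summed to 4379 and 3882 CPM in code 3 and those of mononuclear phagocytes to 1220 and 1140 CPM, so both are higher there than in code 4, and their part in these differences was not tested. Cd3e, at 771 and 764 CPM in code 3, and Fosb, at 216 and 189 CPM, were below day 0 in both arms and did not pass the test between the arms.

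**Figure D5:**
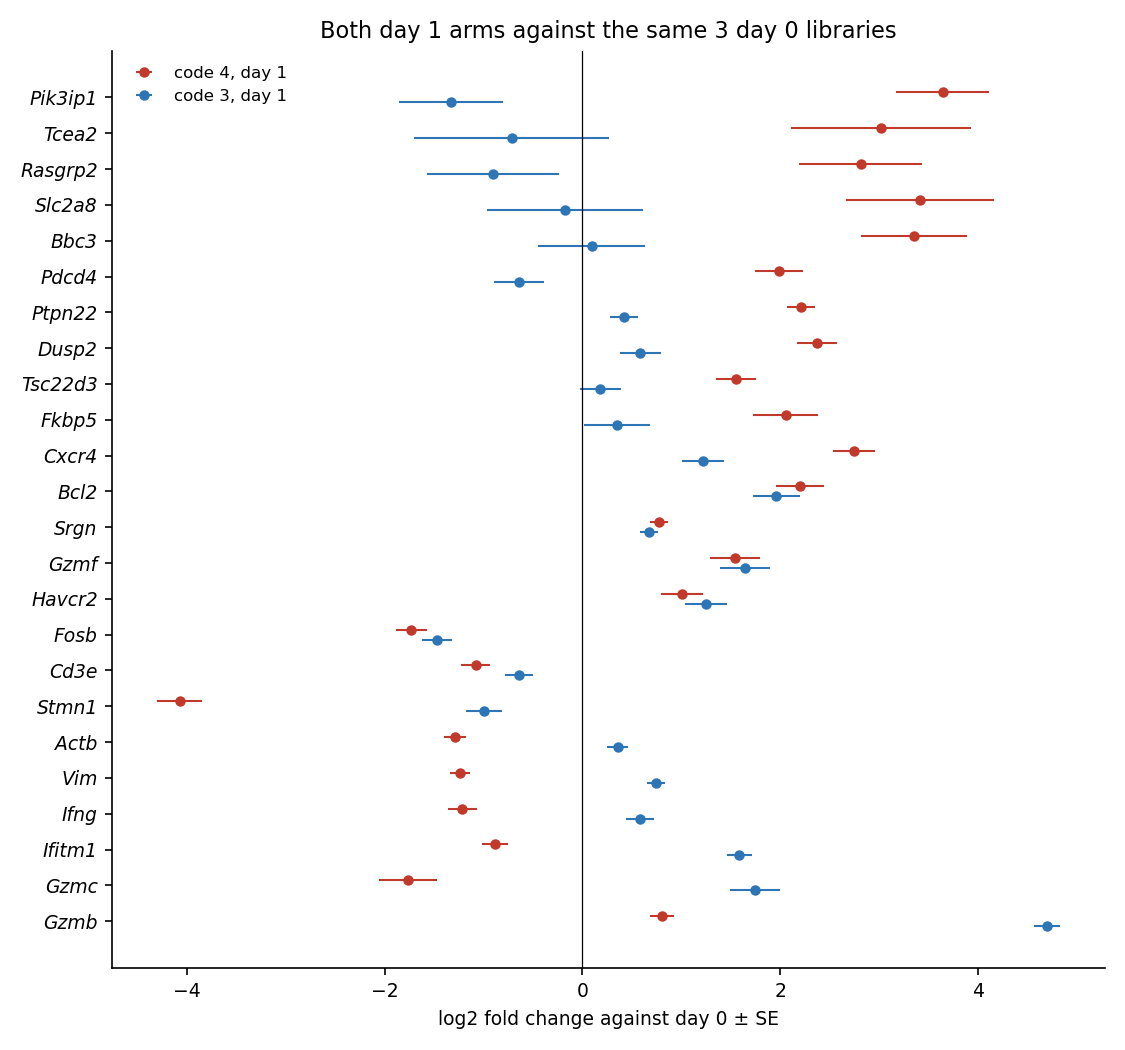
Log2 fold change against the same 3 day 0 libraries, with error bars of 1 SE, of GFP-negative TRM of the code 4 arm (red) and the code 3 arm (blue) for genes named in the text. Tsc22d3, Ptpn22 and Pik3ip1 lie further right in code 4 than in code 3, Bcl2, Gzmf and Srgn lie to the right in both, and Gzmb, Gzmc, Ifng and Actb lie further left in code 4 than in code 3.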

How the data were processed

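Bulk RNA of FACS-sorted TRM was sequenced by CEL-seq2, per the labels' protocols. The authors deposited counts, raw reads per gene and library, and bcl2fastq 2.2, BWA 0.7.15 and HTSeq are named in the submitters' processing notes with the GRCm38 genome. The sources used here do not say if molecular barcodes were used to collapse reads, or how strands were treated, so antisense and near-identical genes are uncertain. Library totals of the groups used ran from 2442825 to 6982296 counts. Columns were assigned to groups by their header codes only where the labels leave 1 reading, so the agent of code 4 was not assigned.

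The test was that of edgeR 4.0.16 in R 4.3.3 (filterByExpr by sorted set, TMM, robust quasi-likelihood F test, limma 3.58.1), in 1 fit of all 17 libraries of the first experiment with 1 mean per sorted set, which share 1 estimate of the spread. Benjamini-Hochberg adjustment ran over all 11588 genes, with calls under 0.05. Each SE is the absolute log2 fold change divided by the square root of its F. A group with no count was taken as 3 counts, and intervals and bounds cover counting error only. The procedure was tested on simulated data.

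The members and the 39 gene lists were chosen with earlier results of these data known, so list counts and medians are descriptions, without a test. Some genes are in more than 1 list, so the list counts are not independent of each other. Genes named are Itgae, Cd69, Nr4a1, Tsc22d3, Fkbp5, Per1, Gzmb, Ifng and eGFP, the 15 called genes with the largest change in each direction (10 CPM or more in the higher group, no overlap of libraries, without predicted genes, pseudogenes and receptor segments; not all are reported here), up to 5 called members of each list by smallest p and members named for their role, and 5 genes in each direction with the largest difference from code 3. Alternatives were median-of-ratios scaling, no low-count filter, DESeq2 1.42.0, a fit of the compared groups only, a replicate block, thinned counts, no mitochondrial genes and leaving out each library. Promoters and their letters are RefSeq's.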

Additional observations from a re-analysis of the deposited data

Results flagged for a closer look

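The direct test of code 4 against code 3 in GFP-negative TRM called 775 genes, so the changes against day 0 differ between the arms for these genes. The genes with the largest such differences, among those also called against day 0, are given here as values of the direct test (edgeR quasi-likelihood test, Benjamini-Hochberg adjustment).

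Higher in code 4 were Pik3ip1 by 4.97 on the log2 scale (adjusted p = 1.34e-05), Tcea2, a transcription elongation factor, by 3.73 (0.0458), Rasgrp2, an activator of Rap1 in T cell adhesion, by 3.72 (0.00426), Slc2a8 by 3.58 (0.017) and Bbc3 by 3.26 (0.00223). Rasgrp2 stood at 22.2 and 29.3 CPM in code 4, at 1.78 and 2.08 CPM in code 3 and at 1.50 to 5.60 CPM at day 0.

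Lower in code 4 were 5 genes of which 4 had no count there, so that their fitted differences are no bounds. Kat2a (fitted difference -9.40) was at 12.7 and 20.8 CPM in code 3 and at least 28.6-fold lower in code 4 against 3 counts over the group, Sox15 (-9.37) at least 27.9-fold, Guca2a (-8.91) at least 19.5-fold and Vdr, the vitamin D receptor (-8.58), at least 15.7-fold. Tgm3, a transglutaminase of the epidermal barrier (-9.22), had 1 count over both code 4 libraries against 174 and 97.3 CPM in code 3 and 23.4 to 62.3 CPM at day 0. Against day 0 the calls of Tcea2, Rasgrp2, Sox15, Guca2a and Vdr were each lost in 1 or more alternatives, with adjusted p-values up to 0.157, 0.0673, 0.272, 0.06 and 0.0954.
In the direct test, the calls of Tcea2, Rasgrp2, Slc2a8 and Bbc3 were lost without code 3 library A (adjusted p = 0.317, 0.0765, 0.148 and 0.0578), and those of Sox15, Guca2a and Vdr without code 4 library B (0.267, 0.0636 and 0.161), while Pik3ip1, Kat2a and Tgm3 kept theirs in every alternative.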

How the results depend on the processing

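Against day 0, 1000 genes were called as reported. Median-of-ratios scaling gave 989 calls, no low-count filter 994, thinning to 2442825 counts 999 and leaving out mitochondrial genes 1003. DESeq2 gave 1532, of which 33.8% were higher against 40.3% as reported, and a fit of only the compared libraries gave 609. Leaving out 1 library gave 620 to 793 calls. For code 4 against code 3, 775 genes were called as reported, 1273 by DESeq2, 311 in a fit of only the compared libraries and 356 to 556 with 1 library left out. Not all calls of these alternatives were among the reported ones. No call shared between the reported test and any of these alternatives changed sign, in either comparison. The alternatives reuse all or most of the same libraries, so this adds no support to the calls. The causes of the lower counts with fewer libraries and of the higher DESeq2 counts were not tested. A group left with 1 library is assumed to vary like the other groups.

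The letters of the libraries were also tried as a replicate block, which gave 701 and 678 calls. Between libraries of the same letter, deviations from the group means correlated at -0.00472 and -0.0137 for code 4 with day 0. For code 4 with code 3 the correlation was 0.00816. The deviations of the 2 code 4 libraries mirror each other by construction, so this check cannot decide whether the letters pair the libraries.

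Of the 122 called genes named, 96 kept the call in every alternative and 26 lost it in 1 or more, 14 of them only when a library was left out or only the compared groups were fitted. Many of the named genes were picked for a small p or a large change, so this share does not carry over to all 1000 calls. The 6 named genes that were not called but passed in an alternative are Nr4a1, Dusp1, Foxp3, Klf2, Ldha and mt-Rnr1. The low depth of code 4 limits genes under about 10 CPM, where 3 counts over the group correspond to 0.606 CPM, against 0.178 CPM at day 0.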

Other observations

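A few genes outside the lists were among the firmest calls against day 0, and they were chosen after their values were seen. Emb, the gene of embigin, a membrane partner of lactate transporters, was at 270, 303 and 473 CPM at day 0 and at 2934 and 2685 CPM in code 4 (log2 fold change 3.01 ± 0.171, adjusted p = 6.56e-10, edgeR quasi-likelihood test). In code 3 it was at 719 and 704 CPM, and the difference between the arms was 1.98 (adjusted p = 7.7e-07). Gpr65, a receptor that senses acid, was at 25.9, 63.9 and 52.3 against 284 and 340 CPM (log2 fold change 2.72 ± 0.25). Pdcd4, an inhibitor of translation initiation, was at 42.4, 35.9 and 49.8 CPM at day 0, at 154 and 184 CPM in code 4 and at 30.5 and 24.1 CPM in code 3. Both galectin genes named here were abundant and moved in opposite directions: Lgals1 fell from 2205, 1987 and 2238 to 537 and 504 CPM (log2 fold change -2.04 ± 0.107), and Lgals3 rose from 1642, 1671 and 1812 to 4302 and 4127 CPM (1.30 ± 0.105).

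Some genes tied to the circadian clock also differed, again chosen after their values were seen. Nfil3, a repressor of clock output genes, rose from 69.1, 76.2 and 76.7 to 202 and 201 CPM (log2 fold change 1.45 ± 0.178, adjusted p = 2.11e-05). Gm129, an inhibitor of the clock's activator complex, was at 27.6, 1.96 and 15.9 CPM at day 0 and at 235 and 178 CPM in code 4 (adjusted p = 0.0122, and 0.0984 without code 4 library A). Hlf, a clock output activator, was at 18.6, 38.2 and 45.8 against 12.8 and 5.16 CPM (adjusted p = 0.0338, and 0.244 without code 4 library B). Per2, Cry1 and Nr1d1 did not pass the test (adjusted p = 0.97, 0.626 and 0.283). The hour of day at which the groups were taken was not used here.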
